A study of Mus musculus with 7 samples.

Results

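The genes described here are 10 neighbours near the start of mouse chromosome 9, between about 5.3 and 8.1 Mb of the build GRCm38: Casp12, Pdgfd, Dync2h1, Dcun1d5, Tmem123, Birc2, Birc3, Yap1, Cfap300 and Cep126. They were taken by symbol from 46603 gene rows of count tables, and all 10 are among the 16731 genes that passed the filter on low counts. They were chosen by their position and selected on their lower counts with the fusion than with empty vector, so that contrast is given for them as a description, without a test. The libraries are polyadenylated RNA of TRAMP-C1 cells, a line grown from the prostate tumour of a transgenic mouse that expressed SV40 T antigens from the probasin promoter. Of these, 3 were transduced with a lentivirus carrying the PAX8-NFE2L2 fusion, 3 with an empty vector, and 1 is labelled WT. Virus stayed on the cells for 12 h and fresh medium followed for 24 h. The labels do not state whether the WT cells were handled in the same way, and nothing in them says that libraries of 1 group came from separate cultures, so the spread given here may be technical.

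The region holds genes of several unrelated functions. Yap1 encodes the transcriptional coactivator that the Hippo kinases keep out of the nucleus and that drives growth genes together with TEAD factors. Birc2 and Birc3 encode the ubiquitin ligases cIAP1 and cIAP2, which are recruited by TRAF2 to TNF receptors, limit cell death and keep the noncanonical NF-kB kinase NIK low. In human cancers and in mouse tumour models the matching region, with YAP1 and the BIRC genes, is known as a recurrent amplicon, in which neighbouring genes gain copies together and YAP1 and cIAP1 have been studied as its drivers. Gene counts hold no measure of DNA copy number.

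The libraries held 26368182 to 55114667 gene counts with the fusion, 40089266 to 59597170 with empty vector and 52859158 in WT. Pax8, which marks the construct, lay between 5.58 and 8.54 CPM (read counts scaled to library size with edgeR's TMM factors) with the fusion, between 0.0334 and 0.217 CPM with empty vector, and at 0.0401 CPM in WT. Replicate 3 of either group was run on a lane of its own and had the highest share of reads with several alignments, 44.78% with the fusion and 45.32% with empty vector, against 36.1 to 38.89% in the other 5. Of 13 prostate epithelial markers, Pbsn and Hoxb13 were at or near 0 in every group. Krt18 and Foxa1 were called higher with the fusion at low levels, with means of 5.92 and 1.54 CPM, against 0.83 and 0 CPM with empty vector (edgeR quasi-likelihood test, adjusted p = 0.0304 and 0.0238). Of the 13, 9 passed the filter on low counts and were tested. No other marker of these 9 was called, and with the replicate block 3 were called higher and 1 lower (13.1% of all genes were called with the block, 5.5% of all genes lower). The 10 mesenchymal markers summed to 13585 to 20514 CPM with the fusion, 14904 to 23522 CPM with empty vector and 23473 CPM in WT, and none was called. All 10 had fitted values below 0, and 3 were called lower under the block. The 8 immune markers summed to 3.47 to 4.27 CPM with the fusion, 2.22 to 2.99 CPM with empty vector and 3.63 CPM in WT. Cd3e, Adgre1 and Tyrobp were at 0 in every library. Only 2 of the 8 passed the filter and were tested, and none of these was called. The 5 endothelial markers summed to 0.762 to 0.879 CPM with the fusion, 0.412 to 0.795 CPM with empty vector and 1.04 CPM in WT. Of these, 1 was tested and it was not called. The part of these differences in the levels below was not tested, and in bulk RNA fewer cells of a type and less RNA per cell cannot be told apart.

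RefSeq promoter windows of GRCm38.p6, from 250 bases before to 50 after each annotated start, were searched on both strands in 14 windows of the 10 genes for 3 motifs. They were the antioxidant response element core TGACNNNGC, to which NRF2 binds with small MAF proteins, the TEAD core GGAATG, and the NF-kB consensus. The windows below are shown because they hold a match in the genes named, with Dcun1d5 added because its start in GENCODE M21 lies 74 bases from that of Dync2h1 on the other strand. The RefSeq window of Dync2h1 lies at another start, chr9:7177009-7177308. Sequences run 5′ to 3′ on the gene's strand, and capitals mark the match.
Yap1 (chr9:8004547-8004846, - strand): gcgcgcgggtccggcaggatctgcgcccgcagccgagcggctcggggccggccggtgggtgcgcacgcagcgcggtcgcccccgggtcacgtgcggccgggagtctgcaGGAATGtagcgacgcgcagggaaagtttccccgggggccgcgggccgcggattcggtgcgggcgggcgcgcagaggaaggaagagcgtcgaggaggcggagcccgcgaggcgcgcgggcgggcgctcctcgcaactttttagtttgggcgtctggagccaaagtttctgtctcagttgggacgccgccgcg
Casp12 (chr9:5345226-5345525, + strand): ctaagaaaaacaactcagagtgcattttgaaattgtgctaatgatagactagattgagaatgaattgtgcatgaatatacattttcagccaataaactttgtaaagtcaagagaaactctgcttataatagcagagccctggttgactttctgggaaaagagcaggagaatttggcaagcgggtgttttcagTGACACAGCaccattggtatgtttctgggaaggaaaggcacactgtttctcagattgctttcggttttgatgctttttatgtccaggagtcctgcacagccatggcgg
Pdgfd (chr9:6168236-6168535, + strand): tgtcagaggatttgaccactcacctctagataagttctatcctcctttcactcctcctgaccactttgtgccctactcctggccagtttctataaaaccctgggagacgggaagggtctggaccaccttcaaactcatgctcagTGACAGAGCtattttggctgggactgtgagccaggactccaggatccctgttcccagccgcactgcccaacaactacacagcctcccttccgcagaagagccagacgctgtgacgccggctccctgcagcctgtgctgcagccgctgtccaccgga
Tmem123 (chr9:7763915-7764214, + strand): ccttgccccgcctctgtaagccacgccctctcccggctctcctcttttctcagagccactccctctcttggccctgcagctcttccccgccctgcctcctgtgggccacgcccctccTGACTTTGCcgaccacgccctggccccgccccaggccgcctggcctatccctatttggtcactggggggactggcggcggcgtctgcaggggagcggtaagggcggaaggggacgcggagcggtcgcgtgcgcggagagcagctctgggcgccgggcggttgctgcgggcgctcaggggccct
Dcun1d5 (chr9:7184255-7184554, + strand): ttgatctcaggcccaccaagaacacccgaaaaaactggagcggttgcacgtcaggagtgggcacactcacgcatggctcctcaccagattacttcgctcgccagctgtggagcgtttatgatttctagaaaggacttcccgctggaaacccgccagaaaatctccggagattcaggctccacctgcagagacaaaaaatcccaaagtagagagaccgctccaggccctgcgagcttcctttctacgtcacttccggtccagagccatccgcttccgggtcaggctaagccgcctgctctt
The antioxidant response element core was present in windows of 3 of the 10 genes, Casp12, Pdgfd and Tmem123, at 58, 106 and 133 bases before the annotated start. Tmem123 has a second annotated start, and the same match lies 45 bases before it. It was present for 13.99% of 27025 genes with a window. The TEAD core was found in 1 of the 10 genes, Yap1 itself, 141 bases before its start, and for 16.58% of all genes. The NF-kB consensus was found in 1 of the 10, in a second Dcun1d5 window that is not printed here, and for 5.14% of all genes. A match describes letters in a window and not a bound site.

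For 9 of the 10 genes the highest fusion library lay below the lowest empty vector library, and Birc3 was the exception. None of the 10 lay above without overlap (9.16% of all genes). Across all genes tested, 6.65% had their fusion libraries below without overlap. The fusion means of those 9 were between 12.7% (Pdgfd) and 28.7% (Yap1) of the empty vector means, and that of Birc3 was 56.0%. The median fitted log2 fold change over the 10 was -2.42, beside 0.01 over all genes tested. The whole-table edgeR test called 5 of them lower, Dync2h1, Tmem123, Yap1, Cfap300 and Cep126 (0.353% of all genes were called lower), and with the replicate number as a block it called 9 (5.5% of all genes). DESeq2 also called 9 lower (1.79% of all genes), and edgeR called none of the 10 higher (1.69% of all genes). Leaving out 1 library moved the edgeR count of calls, and the number of all genes called lower (59 with every library) moved too. It was 3 without fusion replicate 1 (14 of all genes) and 3 without fusion replicate 2 (16 of all genes). Without empty vector replicate 2 it was 4 (10 of all genes), and without empty vector replicate 1 it was 9 (50 of all genes). Since the genes were listed for this contrast, these counts are no test of it. Counts behind the values are high: the lowest was 232 reads, for Cep126 in fusion replicate 3, and the highest 114897, for Dcun1d5 in empty vector replicate 3.

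**Figure D1:**
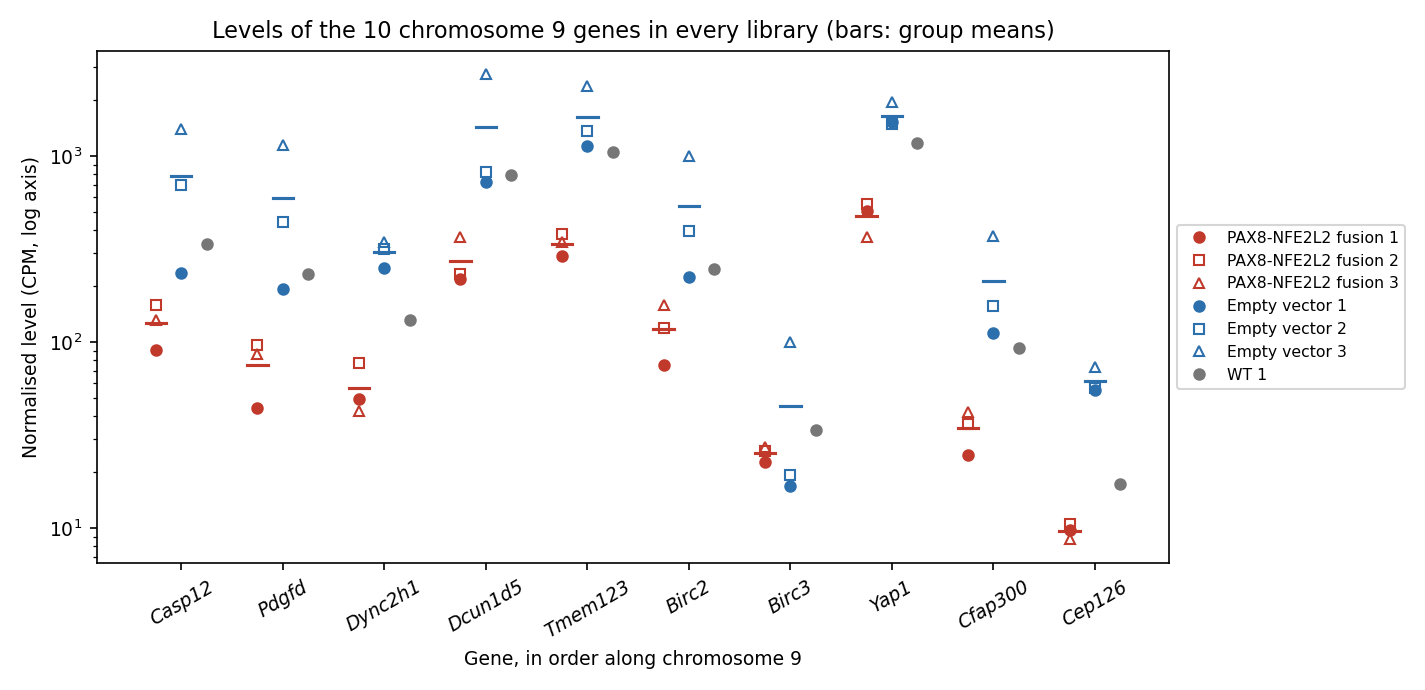
Normalised level (CPM, log axis) of the 10 genes in order along chromosome 9, with 1 symbol per library and a bar at each mean of 3 libraries. Fusion points lie below all empty vector points for every gene but Birc3, and empty vector replicate 3 is the highest library for all 10.

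Among the regulators of cell death, Birc2 had 75.1, 119 and 158 CPM in fusion libraries 1 to 3, against 225, 396 and 997 CPM in empty vector libraries 1 to 3 and 248 CPM in WT. The groups did not overlap, and the libraries of each group were well apart. The means were 117 ± 41.3 CPM with the fusion and 539 ± 405 CPM with empty vector (SD, n = 3 each), a fitted log2 fold change of -2.20 (SE 0.54), and -1.41 without empty vector replicate 3. Birc2 lies at chr9:7818227-7837064 on the - strand (ENSMUSG00000057367.11).

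Birc3, whose transcript is an NF-kB target and whose 3′ end lies 11635 bases from the start of Birc2, had a different pattern. It had 22.7, 26.1 and 27.3 CPM in the fusion libraries, against 16.8, 19.3 and 99.8 CPM in the empty vector libraries and 33.6 CPM in WT. The fusion libraries lay above 2 empty vector libraries and below the third, so the groups overlapped. The fitted log2 fold change of -0.84 (SE 0.63) rests on empty vector replicate 3: without that library the value was 0.49, and with numbers 1 and 2 only it was 0.45. Birc3 also shares most sequence with other genes: 7.42% of its 50-base stretches occur in a gene other than the 10, most often Gm7019, compared with 1.33% for Birc2, 1.35% for Yap1 and none for the other 7 genes. Birc2 and Birc3 have 65 such stretches in common. Reads with several alignments are not assigned to a gene, which can lower its count. Birc3 is annotated at chr9:7848699-7873186 on the - strand (ENSMUSG00000032000.16).

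Casp12, an inflammatory-type caspase that has been studied in endoplasmic reticulum stress in mice, had 90.8, 158 and 131 CPM in the fusion libraries. Its empty vector libraries had 234, 699 and 1400.1 CPM, and WT had 336 CPM. The highest fusion library was below the lowest empty vector library, while the empty vector libraries themselves differed 5.99-fold from lowest to highest. The fitted log2 fold change was -2.62 (SE 0.58), with means of 126 ± 33.6 CPM with the fusion and 778 ± 587 CPM with empty vector. It was -1.88 without empty vector replicate 3. The gene is at chr9:5345430-5373032 on the + strand (ENSMUSG00000025887.9).

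Yap1, at chr9:7931999-8004596 on the - strand (ENSMUSG00000053110.12), had 505, 550.3 and 368 CPM in the fusion libraries. The empty vector libraries had 1520.3, 1483 and 1950.1 CPM, and WT had 1182 CPM. All fusion libraries were low and all empty vector libraries high, with WT in the gap between them. The means were 474 ± 94.7 CPM with the fusion and 1651 ± 259.7 CPM with empty vector, a fitted log2 fold change of -1.80 (SE 0.24). Gm20416, a processed transcript on the opposite strand, overlaps Yap1 and was at 0.487 to 0.568 CPM with the fusion and 1.12 to 1.66 CPM with empty vector. Without a known strand setting, reads of the overlap cannot be assigned to either.

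Pdgfd, which encodes a secreted ligand of the PDGF receptor beta, had a fitted log2 fold change of -2.97 (SE 0.63), the lowest of the 10. Without empty vector replicate 3 it was -2.07, and Cep126 was then the lowest at -2.54. It had 44.0, 96.9 and 86.3 CPM in the fusion libraries, against 192, 444 and 1146 CPM in the empty vector libraries and 232 CPM in WT. Fusion libraries 2 and 3 were alike and library 1 was lower, and the 3 empty vector libraries were widely apart. Pdgfd spans chr9:6168584-6378850 on the + strand (ENSMUSG00000032006.13), and Ddi1 lies within it on the other strand.

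Dcun1d5 and Tmem123 had the highest levels per exon length. Dcun1d5, one of the DCN1-like proteins that help attach NEDD8 to cullins, had 218, 233 and 366 CPM in the fusion libraries, against 725, 825 and 2766 CPM in the empty vector libraries and 795 CPM in WT. Empty vector replicate 3 was far above the other 2, which lay close to WT. The fitted log2 fold change was -2.40 (SE 0.54), and it was -1.51 without empty vector replicate 3. Dcun1d5 is at chr9:7184520-7208205 on the + strand (ENSMUSG00000032002.9).

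Tmem123, also known as porimin, is a membrane mucin described in human cells in a form of cell death with membrane swelling. It had 289.7, 380.1 and 346 CPM in the fusion libraries, against 1137, 1367 and 2397 CPM in the empty vector libraries and 1057 CPM in WT. The fusion libraries were close together and WT lay just under the lowest empty vector library. The means were 338 ± 45.6 CPM with the fusion and 1634 ± 671 CPM with empty vector, a fitted log2 fold change of -2.27 (SE 0.32). Tmem123 is at chr9:7764041-7794333 on the + strand (ENSMUSG00000050912.14).

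Of the 10 genes, 3 belong to cilia and centrosomes. Dync2h1, the heavy chain of the dynein-2 motor that carries cargo from the tip of the cilium back to its base, had 49.6, 77.3 and 42.8 CPM in the fusion libraries. The empty vector libraries had 250.4, 318 and 346 CPM and WT had 132 CPM. The groups did not overlap, fusion library 2 was the highest of its group, and WT lay between the groups. The means were 56.6 ± 18.3 CPM with the fusion and 305 ± 49.3 CPM with empty vector, a fitted log2 fold change of -2.43 (SE 0.28), for a gene at chr9:6928503-7184446 on the - strand (ENSMUSG00000047193.14).

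Cep126, a centrosome protein that in human cells is needed to form primary cilia, had 9.78, 10.5 and 8.68 CPM in the fusion libraries, against 55.4, 56.8 and 73.3 CPM in the empty vector libraries and 17.3 CPM in WT. Its fusion libraries were the most even of the 10 (SD 0.897 CPM around a mean of 9.64 CPM, or 9.3%), and WT was nearer to the fusion libraries than to the empty vector ones. The fitted log2 fold change was -2.68 (SE 0.21), at chr9:8076461-8134294 on the - strand (ENSMUSG00000040729.6). Cfap300, needed in humans to assemble the dynein arms of motile cilia, had 24.7, 36.3 and 42.2 CPM in the fusion libraries, against 112, 156 and 373 CPM in the empty vector libraries and 92.8 CPM in WT. The groups did not overlap, and WT was below every empty vector library. The fitted log2 fold change was -2.63 (SE 0.46), and -1.96 without empty vector replicate 3, for a gene at chr9:8021672-8042823 on the - strand (ENSMUSG00000053070.4).

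Levels per exon length, in TPM (counts divided by exon length and scaled to a fixed total), put Tmem123 first and Dcun1d5 second in both group means and in WT. In replicate 3 of both groups this order was reversed. There Dcun1d5, with the slightly shorter exon length, had more reads than Tmem123 (9774 against 9234 with the fusion, 114897 against 99571 with empty vector). With the fusion, Tmem123 had 374 ± 56.0, Dcun1d5 299.7 ± 61.8, Yap1 178 ± 47.6 and Casp12 113 ± 31.4 TPM (SD, n = 3). Birc2, Pdgfd and Cfap300 followed at 86.6 ± 24.7, 82.0 ± 30.0 and 73.5 ± 15.1 TPM, gaps smaller than their SDs, so that their order is not resolved. The gap from Casp12 to Birc2 was also smaller than the SD of Casp12, so the order of these is not resolved either. Birc3, Dync2h1 and Cep126 were lowest, with 17.4 ± 1.20, 12.0 ± 4.49 and 7.22 ± 1.20 TPM. With empty vector, Tmem123 had 1803 ± 597 and Dcun1d5 1574 ± 1141 TPM, and these 2 were not apart beyond their spread. Casp12, Pdgfd, Yap1, Cfap300 and Birc2 followed, from 684 ± 475 down to 397 ± 269.7 TPM, again with each gap smaller than the SD of at least 1 neighbour. Dync2h1 had 64.8 ± 7.32, Cep126 46.5 ± 3.94 and Birc3 30.1 ± 29.4 TPM, and the order of Cep126 and Birc3 is not resolved given the SD of Birc3. In the single WT library, Tmem123 had 1097, Dcun1d5 834, Yap1 412 and Casp12 283 TPM, and Cep126 was lowest at 12.1 TPM.

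The empty vector libraries did not hold the region at 1 level. Replicate 3 was higher than replicate 1 for all 10 genes, by a median log2 ratio of 1.83, beside 0.00 over all genes tested. For 7 of the 10 it was at least 2-fold higher, compared with 5.67% of all genes, and the ratios were largest for Casp12 (log2 2.58), Pdgfd (2.57), Birc3 (2.53) and Birc2 (2.14). Yap1 (0.36), Cep126 (0.40) and Dync2h1 (0.47) were nearly level. Replicate 2 was at least 2-fold above replicate 1 for 2 of the 10, Casp12 and Pdgfd, compared with 2.22% of all genes. Fusion replicates 1 and 3 were at least 2-fold apart only for Birc2, 1 of 10, compared with 8.19% of all genes. Replicate 3 of each group came from other lanes and had the larger share of reads with several alignments given above, and the part of that in these ratios was not tested. A high empty vector library also adds to the contrast on which the 10 were selected. The shares of all genes beside the empty vector ratios are therefore no test.

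Set by replicate number, the median log2 ratio of fusion to empty vector over the 10 genes was -1.85, -1.94 and -2.96 for numbers 1, 2 and 3. Over all genes tested it was 0.00, 0.01 and 0.03. The ratio was negative for 9 of 10 genes in all 3 pairs, which follows from the lack of overlap given above and adds nothing to it. Birc3 had log2 ratios of 0.42, 0.43 and -1.85, so its sign was set by the pair numbered 3.

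The single WT library lay above every fusion library for all 10 genes, compared with 22.6% of all genes. It lay below every empty vector library for 5 of the 10, compared with 21.6% of all genes: Dync2h1, Tmem123, Yap1, Cfap300 and Cep126. These 5 were between the groups, compared with 1.26% of all genes. For Casp12, Pdgfd, Dcun1d5, Birc2 and Birc3 WT fell within the range of the empty vector libraries. Only genes with the fusion below empty vector without overlap can hold WT between the groups. Of all genes tested, 1112 had no such overlap, and 211 held WT between the groups. The 10 were selected for low fusion values, so the shares of all genes given here for WT are no test. The median log2 ratio of fusion mean to WT over the 10 was -1.39, and that of empty vector mean to WT was 0.85. With 1 WT library these ratios have no replicate check.

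Taken as a profile over 7 libraries, each gene's log2(CPM + 0.5) less its own mean averaged -1.36, -0.90 and -0.99 in the fusion libraries, 0.32, 0.83 and 1.90 in the empty vector libraries and 0.20 in WT. Each gene correlated with the mean of the other 9 at Pearson's r of 0.896 to 0.995, apart from Birc3 at 0.525. These coefficients describe 7 libraries that fall into groups and differ in depth. The 10 were selected on the contrast of fusion and empty vector, which in itself makes their profiles alike, and the coefficients carry no p. The search for similar profiles covered 13343 genes with enough counts outside the interval from Casp4 to Cep126. Those most like the mean of the 10 were Enkur (r = 0.993), Neto2 (0.990), BC065397 (0.987), Cavin4 (0.981) and Dhx36 (0.977). None lies on chromosome 9, where the other genes of that interval had been left out of the search. Neto2, an accessory subunit of kainate receptors on chromosome 8, had 169, 176 and 216 CPM in the fusion libraries, against 431, 524 and 948 CPM in the empty vector libraries and 406 CPM in WT. The likeness for Dhx36 and BC065397 is one of shape and not of size: their log2 fold changes were -0.23 and -0.45.

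**Figure D2:**
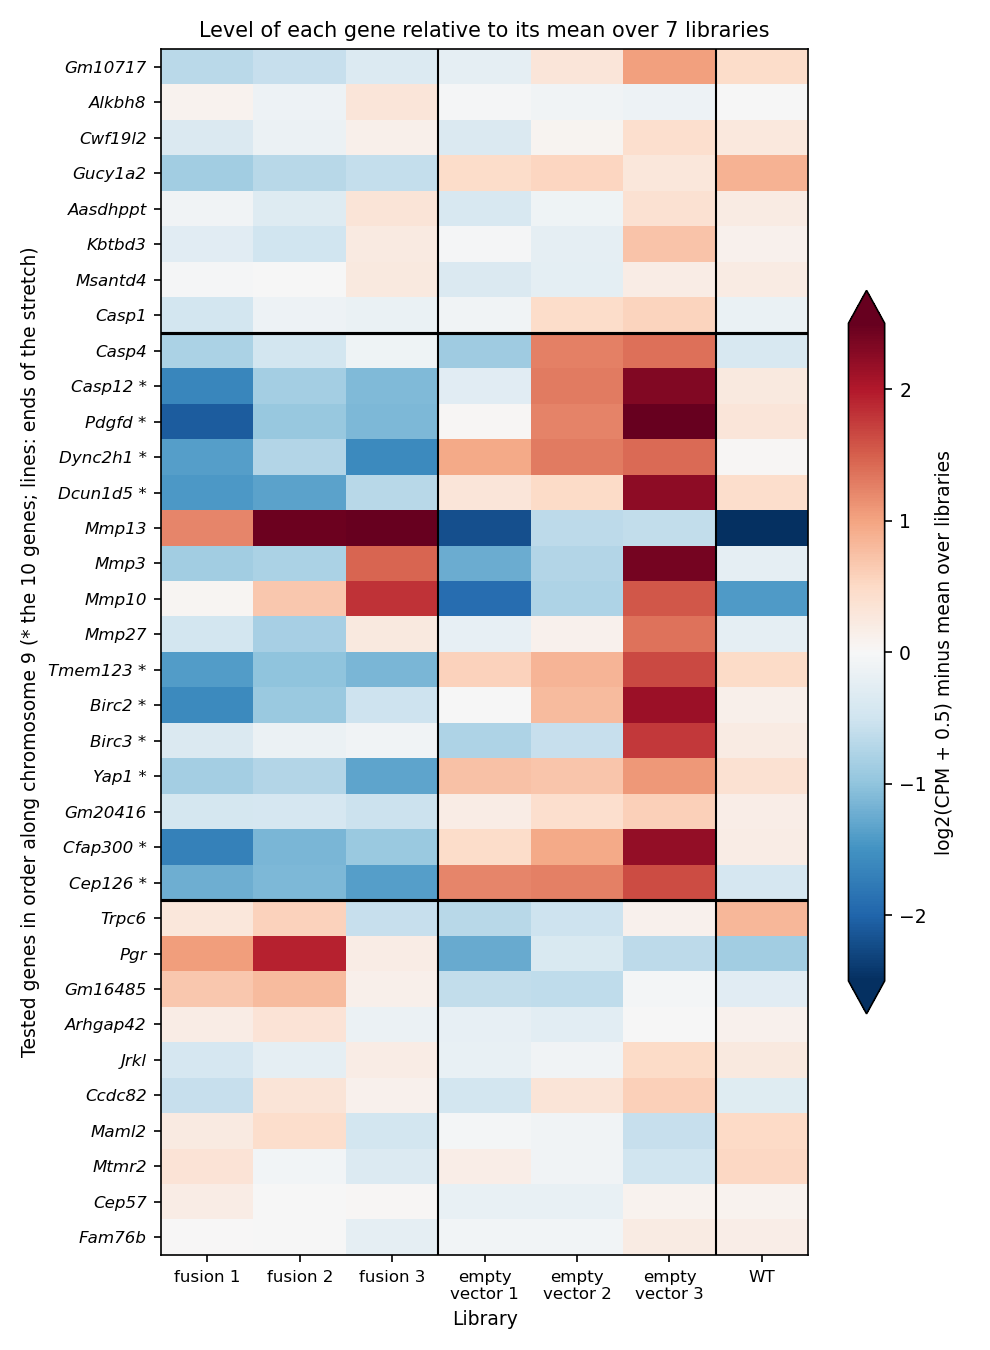
Level of each tested gene of the stretch and its flanks relative to its mean over 7 libraries (log2(CPM + 0.5), colour scale at right), in order along chromosome 9, with fusion libraries left of empty vector and WT. The 10 genes (asterisks) are blue in the fusion libraries, with Birc3 palest there, and each is at its deepest red in empty vector replicate 3.

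The 10 genes were not all of the tested genes in the stretch. From Casp4 to Cep126, chr9:5308828-8134294, there are 16, over 2.83 Mb, with fitted log2 fold changes of -2.0 in the median and below 0 for 14. The other 6 had a median of -1.0. Mmp13, an interstitial collagenase in the middle of the stretch, ran the other way: it had 503, 1179.8 and 1215 CPM in the fusion libraries, against 46.3, 136 and 141 CPM in the empty vector libraries and 32.3 CPM in WT, a log2 fold change of 3.16 (SE 0.51). Mmp10, a stromelysin, was at 0.72 (SE 0.87), and Mmp3, another stromelysin, at -0.69 (SE 1.0), both with the groups overlapping. Casp4, an inflammatory caspase, was at -1.32 (SE 0.52) and Mmp27 at -1.59 (SE 0.83), again with the groups overlapping, and Gm20416 was at -1.37 (SE 0.33) without overlap. The metalloproteinase genes lie between Dcun1d5 and Tmem123, which were both lower with the fusion, so the low levels did not extend over every gene in the interval.

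Beyond the ends the medians were nearer 0. The ends were set with the values known, so the contrast of stretch and flank is a description. The 8 tested genes between the chromosome's start and Casp4 had a median log2 fold change of -0.31, and the 10 tested genes after Cep126 had 0.23. The right median joins near and distant genes. Those from Trpc6 to Arhgap42, with midpoints 0.608 to 1.112 Mb from the Yap1 start, were at 0.30 to 2.09. Those from Jrkl to Fam76b, 5.24 to 5.837 Mb away, were at -0.24 to 0.34. On the left, 3 of 8 lay below empty vector without overlap (6.65% of all genes): Casp1, Gucy1a2 and Gm10717. Gm10717, named after its value was seen, was at 0.0762, 0.11 and 0.225 CPM with the fusion and 0.284, 0.627 and 1.37 CPM with empty vector (log2 fold change -2.54, edgeR adjusted p = 0.15, and 0.0152 with the block). Those levels rest on few reads, 4 to 6 with the fusion and 17 to 57 with empty vector. Casp1, which activates interleukin-1 beta and starts the left flank 1.56 kb from Casp4, had 0.0572, 0.201 and 0.187 CPM in the fusion libraries, against 0.217, 0.555 and 0.626 CPM in the empty vector libraries. Casp1 too had few reads, 3 to 11 with the fusion and 13 to 31 with empty vector. Its log2 fold change was -1.66 (edgeR adjusted p = 0.33), and the next 2, Msantd4 (0.20, adjusted p = 0.92) and Kbtbd3 (-0.44, adjusted p = 0.873), did not pass either. On the right, 0.41 Mb from Cep126, Trpc6, a calcium-permeable channel, had a log2 fold change of 1.30 (adjusted p = 0.723). Its counts were low, 3 to 47 reads with the fusion and 4 to 20 with empty vector. Pgr, the progesterone receptor, was at 2.09 (adjusted p = 0.0838, and 0.0264 with the replicate block), with 13.2, 24.9 and 7.07 CPM in the fusion libraries and 2.29, 4.62 and 3.71 CPM in the empty vector libraries, and Gm16485 was at 2.06 (adjusted p = 0.152). Gm16485 had 15 to 64 reads with the fusion and 7 to 18 with empty vector. Pgr and Gm16485 were the 2 of 10 on the right above empty vector without overlap (9.16% of all genes), and 0 lay below. In all, 1 of 8 genes on the left and 0 of 10 on the right were called (2.04% of all genes), and 2 and 1 with the block (13.1% of all genes). DESeq2 called 2 lower on the left and 2 higher on the right (5.51% of all genes in either direction). The 1 call on the left was Gucy1a2, a guanylate cyclase subunit named after its value was seen, at 1.28, 1.5 and 1.65 CPM with the fusion and 3.95, 4.17 and 3.44 CPM with empty vector (log2 fold change -1.39, edgeR adjusted p = 0.0458).

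**Figure D3:**
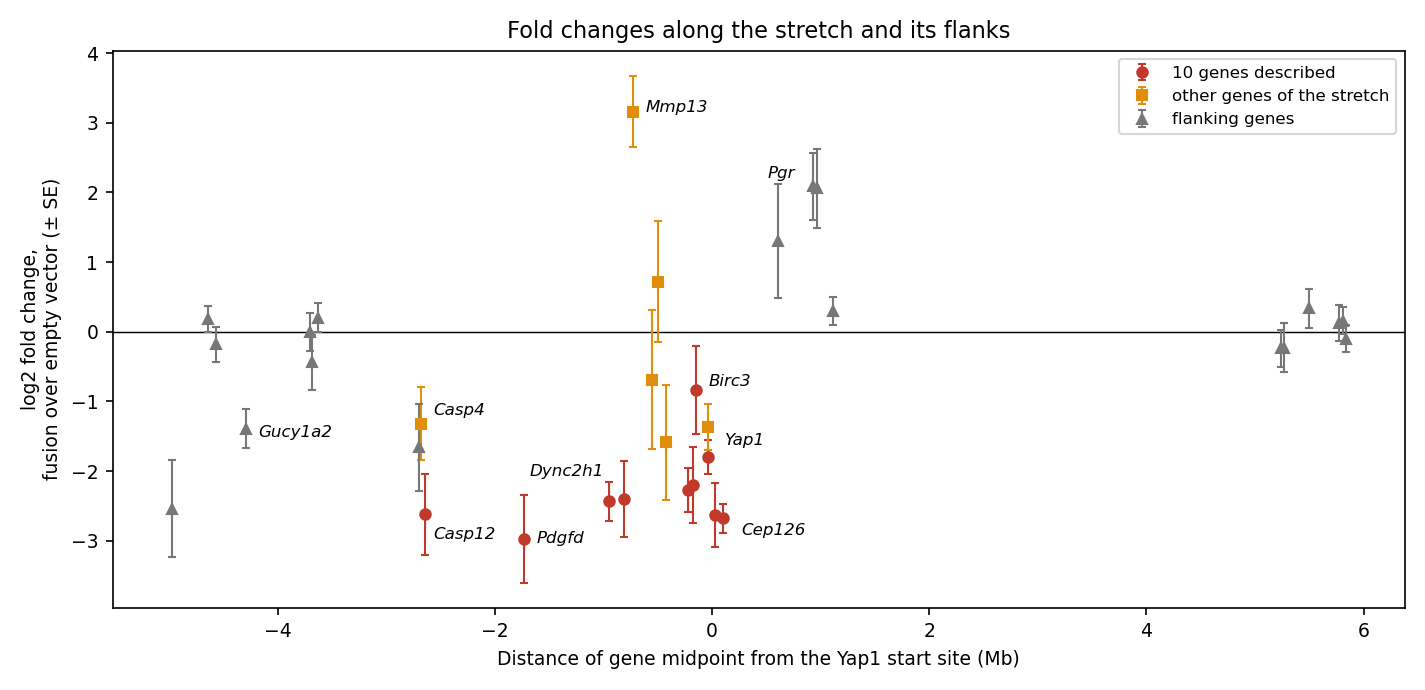
Fitted log2 fold change (fusion over empty vector, bars: SE) against the distance of each gene's midpoint from the Yap1 start site in Mb. The 10 genes lie between -2.97 and -0.84, Mmp13 stands at 3.16 within the same interval, and the flanking genes have medians of -0.31 on the left and 0.23 on the right.

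Genes of the pathways in which the 10 take part were read from the same test over 16731 genes. They come from 8 lists with 134 of 140 distinct genes tested, leaving out the 10. None of the 134 was called (2.04% of all genes), 8 had an unadjusted p under 0.05, compared with 10.9% of all genes, and the median log2 fold change over them was -0.02. With the replicate block the edgeR test called 17 (7 higher, 10 lower; 13.1% of all genes), and DESeq2 called 5 (4 higher, 1 lower; 5.51% of all genes). The tests with and without the block differ over these genes, and adjusted p-values with and without it are given for the genes it called. DESeq2 called F3, Fjx1, Foxf2 and Nrp1 higher and Dnaaf3 lower.

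The 22 YAP and TEAD target genes had a median log2 fold change of 0.04, with 13 above and 9 below 0 and none called. Ccn1, a matricellular protein and standard YAP reporter, averaged 689 ± 299.8 CPM with the fusion and 714 ± 143 CPM with empty vector (log2 fold change -0.05, edgeR adjusted p = 0.995). Ccn2, another such reporter, averaged 154 ± 81.3 CPM with the fusion and 258 ± 109 CPM with empty vector (-0.75, 95% interval -1.74 to 0.25, adjusted p = 0.67). Ankrd1 was at -0.43 (interval -1.19 to 0.32, adjusted p = 0.817). The 4 targets with an unadjusted p under 0.05 all had higher fitted values with the fusion. F3, the tissue factor gene, averaged 135 ± 16.9 CPM with the fusion and 65.6 ± 13.5 CPM with empty vector (1.04, adjusted p = 0.0618, and 0.00204 with the block). Foxf2, a forkhead factor, was at 1.41 (adjusted p = 0.0942, and 0.00204 with the block), and Gadd45a, a stress-response gene, at 0.87 (adjusted p = 0.45, and 0.0043 with the block). Fjx1, the mammalian relative of the fly gene four-jointed, was at 2.25 (adjusted p = 0.252), and DESeq2 called it (adjusted p = 0.0215).

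Of 24 Hippo genes and YAP partners none was called and the median was -0.10. Wwtr1, which encodes the YAP paralog TAZ, averaged 209.9 ± 21.1 CPM with the fusion and 206 ± 15.4 CPM with empty vector, a log2 fold change of 0.03 with a 95% interval of -0.39 to 0.45 (edgeR adjusted p = 0.995). Tead1, a DNA-binding partner of YAP, was at -0.07 (interval -0.82 to 0.69, adjusted p = 0.993). With the block 2 were called lower, Tead2 (-0.37, edgeR adjusted p = 0.034 with it and 0.688 without) and Amotl1, an angiomotin that binds YAP (-0.31, adjusted p = 0.0389 with it and 0.904 without).

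For the cIAP pathway, 26 genes of the IAP family, TNF receptor complexes and noncanonical NF-kB had a median of 0.08 and none was called. Xiap, the caspase-binding relative of the cIAPs, was at 0.18 (95% interval -0.21 to 0.57, edgeR adjusted p = 0.888). Map3k14, which encodes NIK, was at 0.28 (interval -0.25 to 0.80, adjusted p = 0.851), and Nfkb2 at 0.19 (adjusted p = 0.921). With the block 2 were called higher and 4 lower. The higher ones were Traf2, the adaptor that brings in the cIAPs (0.35, adjusted p = 0.0403 with the block and 0.582 without), and Rela, an NF-kB subunit (0.40, 0.0219 with and 0.582 without). The lower ones were Ripk3, a necroptosis kinase (-0.38, adjusted p = 0.0413 with and 0.531 without), and Tnfrsf12a, the receptor for TWEAK (-0.35, 0.0429 with and 0.834 without). Htra2, a mitochondrial protease that binds IAPs (-0.41, adjusted p = 0.0405 with and 0.617 without), and Cflar, the caspase-8 regulator FLIP (-0.41, 0.0297 with and 0.48 without), were also called lower with it. The 6 tested caspases elsewhere in the genome had a median of 0.05, and only Casp8 was called higher with the block (0.54, adjusted p = 0.00874 with it and 0.496 without).

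Of 6 genes of PDGF ligands and receptors with their coreceptor, 5 were tested, with a median of -0.31. Pdgfrb, the receptor for the Pdgfd product, was at -0.31 (95% interval -1.09 to 0.47, edgeR adjusted p = 0.921). Nrp1, a coreceptor, averaged 476 ± 51.7 CPM with the fusion and 233 ± 78.4 CPM with empty vector (1.03, adjusted p = 0.137, and 0.0206 with the block). The 18 neddylation genes and cullins had a median of 0.00. Cul3, a cullin that NEDD8 activates, was at 0.04 (interval -0.44 to 0.51, adjusted p = 0.994), and Uba3, a subunit of the NEDD8 activating enzyme, was called lower with the block (-0.40, adjusted p = 0.0204 with it and 0.778 without).

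The 29 other genes of dynein-2 and intraflagellar transport had a median of -0.10, with 19 below 0. Dync2li1, the dynein-2 light intermediate chain, was at 0.07 (95% interval -0.53 to 0.67, edgeR adjusted p = 0.990). With the block Wdr60 (-0.53, adjusted p = 0.042 with it and 0.473 without) and Wdr35 (-0.69, 0.0423 with it and 0.26 without) were called lower. Of 11 axonemal dynein assembly factors 7 were tested, with a median of -0.08, and Dnaaf3 was the lowest: it averaged 0.982 ± 0.388 CPM with the fusion and 2.85 ± 0.953 CPM with empty vector (-1.52, adjusted p = 0.137, and 0.00896 with the block). A difference that misses the threshold does not show that these genes were alike, and the intervals give what the 6 libraries allow.

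**Figure D4:**
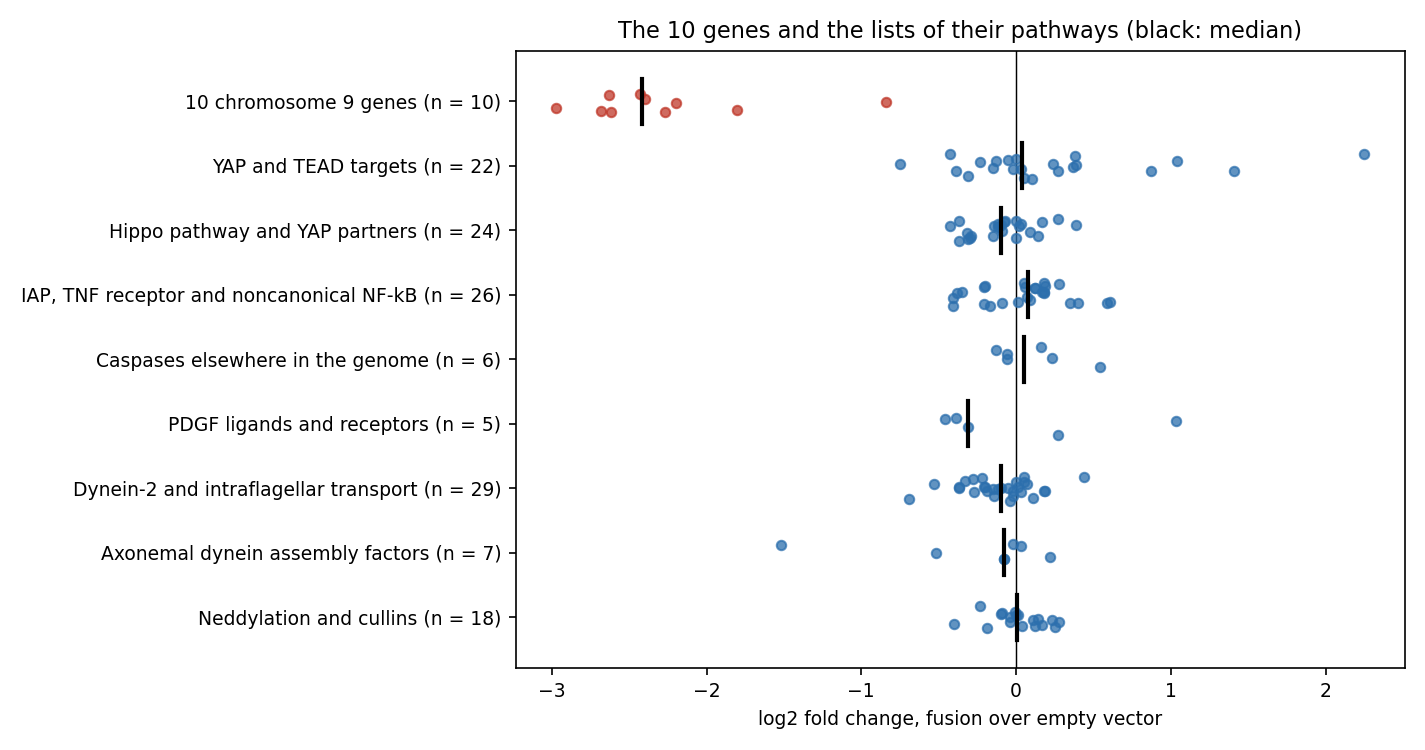
Fitted log2 fold change (fusion over empty vector) of the 10 chromosome 9 genes (red) and of the tested genes in 8 pathway lists (blue), with the median of each row in black. The 10 genes have a median of -2.42, and the medians of the 8 lists lie between -0.31 and 0.08.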

How the data were processed

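Polyadenylated RNA of TRAMP-C1 cells was sequenced as 50 bp single reads. STAR, HTSeq and GRCm38 are named in the submitters' processing notes, and the authors deposited raw counts per gene, with 1 table per lane. No version, annotation release or strand setting is given in the sources used here. The 12 tables were read and lanes summed within a library, since lanes of 1 library agreed within sampling noise (chi-square over degrees of freedom of 0.978 to 1.01). Reads outside genes (5.726 to 6.927%), ambiguous (1.222 to 1.479%) and with several alignments (36.1 to 45.32%) were left out of library sizes. Symbols and positions come from GENCODE M21, in which 46091 of 46603 rows matched.

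Fusion and empty vector were compared in 6 libraries with edgeR 4.0.16 (R 4.3.3): TMM factors 0.9815 to 1.027, filterByExpr with a minimum count of 10, robust quasi-likelihood test, biological coefficient of variation 0.301, Benjamini-Hochberg adjustment at 0.05 over 16731 genes. The script was tested on simulated counts. Alternatives were a replicate block, RLE size factors, no filter, all 7 libraries, numbers 1 and 2 only, each library left out, and DESeq2 1.42.0. For the 10 genes, fold changes from CPM without TMM factors were a further alternative. CPM use TMM factors over 7 libraries, ratios add 0.5 CPM, and TPM use exon length. Same-numbered libraries deviated together (correlation 0.659, 0.630 and 0.610 for numbers 1, 2 and 3, against -0.530 to -0.047 otherwise), so the numbers were taken to pair them. This comes from the data, since no label names a shared batch. The 10 genes, the pathway lists and the flanks were chosen with earlier results of these data known. Text names all 10 genes, the stretch's other genes, the 3 nearest flanking genes on each side, the 5 genes of the most similar profile, and for the pathway lists 12 fixed genes and any called. List genes called with the block or DESeq2 alone were added after their values were seen. The summed level of the prostate epithelial markers is not reported here.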

Additional observations from a re-analysis of the deposited data

How the results depend on the processing

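The lower levels of the 10 genes were kept by all but 2 of 130 alternative values: 128 lay below 0, and both exceptions were Birc3, at 0.49 without empty vector replicate 3 and 0.45 with numbers 1 and 2 only, and otherwise down to -1.25 when empty vector replicate 1 was left out. The genes were selected on this contrast and the alternatives reuse the same libraries, so the count of values below 0 is no test of it. The median over the 10 was -2.25 with the replicate block and -1.90 with numbers 1 and 2 only, and from -2.65 to -1.89 when 1 library was left out. Without empty vector replicate 3, Dcun1d5 was at -1.51, Birc2 at -1.41, Cfap300 at -1.96, Pdgfd at -2.07 and Casp12 at -1.88. The number of the 10 called lower by edgeR was 3 to 9 when 1 library was left out, while 10 to 75 of all genes were called lower. Over all genes 341 were called, 2196 with the replicate block (1276 higher, 920 lower), 530 with no filter on low counts (397 higher, 133 lower) and 922 with DESeq2 (622 higher, 300 lower). Leaving out 1 library gave 133 to 384 calls, with 133 without empty vector replicate 2, 196 without fusion replicate 1 and 148 without fusion replicate 2. Of the pathway list genes none was called, 17 with the replicate block, 5 with DESeq2, 2 with no filter and 2 with numbers 1 and 2 only, and 0 when any 1 library was left out. The cause of these changes was not tested. Depth does not limit the 10 genes, whose lowest count was 232. Having 3 libraries a group, 1 WT library and an unknown strand setting do.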
